A study of Macaca mulatta with 4 samples.

Results

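Glycine receptors, GABA-B receptors and the scaffold protein gephyrin form part of the inhibitory signalling of the brain that lies outside the GABA-A receptor. The 6 genes described here are GLRA2, GLRA3 and GLRB, which encode glycine receptor subunits, GABBR1 and GABBR2, which encode the GABA-B receptor subunits, and GPHN, which encodes gephyrin. They were chosen by name from the deposited table, by matching Ensembl macaque gene IDs to symbols, and each matched 1 of 35395 IDs. All 6 passed the filter on low counts.

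RNA of the amygdala, a cluster of temporal lobe nuclei that handles emotion and threat, was sequenced from infant wild-type rhesus macaques (Macaca mulatta), with 1 female and 1 male library in each of 2 conditions. The libraries are named as in the labels, C-f and C-m for the control female and male and S-f and S-m for the sevoflurane-treated female and male. Sevoflurane animals inhaled the anaesthetic at about 2.5 to 3% for 4 hours on each of 3 occasions, near postnatal days 7, 21 and 35. Amygdala was collected directly after the third exposure. The labels call the other animals control, and no source used here says what they breathed or how they were handled. In this bulk tissue, fewer cells of a type and less RNA per cell cannot be told apart. Since each condition holds 1 library of each sex, p-values measure only the spread between these libraries, which includes the difference between the sexes.

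A glycine receptor is a chloride channel of 5 subunits in which alpha subunits bind glycine and the beta subunit, from GLRB, attaches the channel to gephyrin. GLRA2, an X-linked gene, encodes the alpha subunit best known from the immature brain. The GABA-B receptor is not a channel. Its GABBR1 subunit binds GABA, its GABBR2 subunit couples to G proteins and carries GABBR1 to the cell surface, and the pair acts through potassium channels, calcium channels and adenylyl cyclase. Sevoflurane is known to enhance the currents of GABA-A and glycine receptors.

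Libraries held 12477047 to 16293371 reads on genes. Levels are read counts scaled to a common library size (CPM) with TMM scaling, and a gene was called at an adjusted p under 0.05 (edgeR's quasi-likelihood test, Benjamini-Hochberg over 15417 tested genes). Changes between the conditions were widespread, with 40.7% of tested genes called, 21.3% higher and 19.4% lower in the sevoflurane libraries. Within each condition the libraries correlated at r = 0.944 (controls) and 0.942 (sevoflurane) over genes, and between conditions at 0.715 to 0.807. Cytosolic ribosomal protein genes, which have short messenger RNAs, summed to 29780 and 42352 CPM in the controls and to 10516 and 10941 CPM in the sevoflurane libraries, with 67 of 77 called lower. The part of such whole-library differences in the results below was not tested. Reads on 6 Y-linked genes matched the sex labels, with 2 and 6 in the female and 2139 and 5795 in the male libraries. The 6 hindbrain and spinal HOX genes matched in the file had 0 reads. No marker that singles out the amygdala was examined.

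Of the 6 genes, GABBR2 and GLRA3 rose in the sevoflurane libraries. By edgeR 0 fell, as at an unadjusted p under 0.05 and by DESeq2. That is 2 of 6 called higher, beside the 21.3% of all tested genes called higher. The median log2 fold change of the 6 was 0.87, against 0.0040 over all tested genes. Both sevoflurane libraries lay above both controls for 4 of the 6 (GLRA3, GLRB, GABBR2 and GPHN), beside 37.7% of tested genes.

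**Figure D1:**
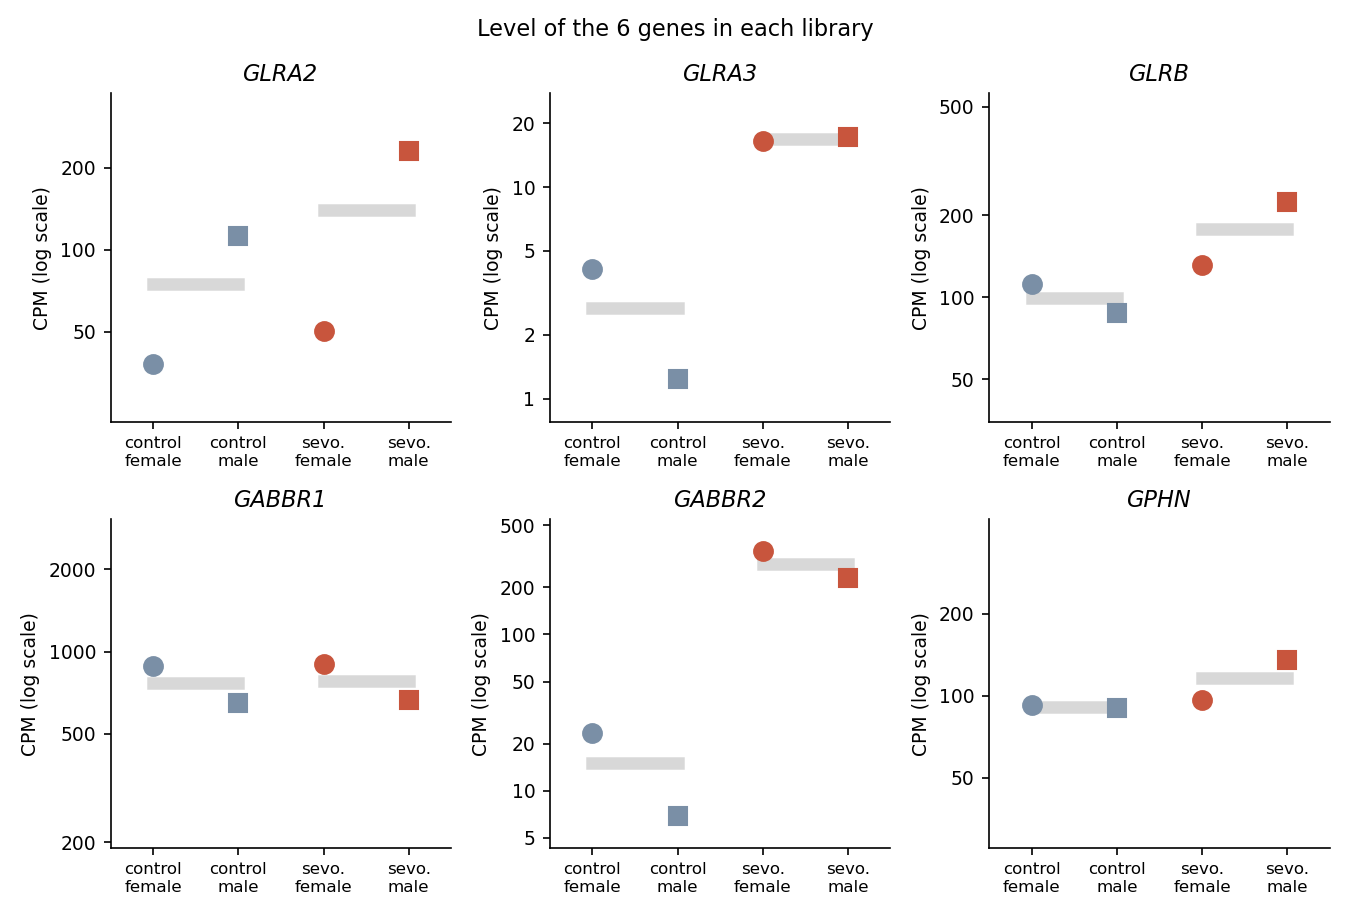
CPM (log scale) of the 6 genes in C-f, C-m, S-f and S-m. Circles are female and squares male libraries, and grey bars are the means of 2 libraries. GABBR2 and GLRA3 show a wide gap between conditions, GABBR1 sits at similar levels in both, and GLRA2 is higher in males than in females.

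GABBR2 (ENSMMUG00000009832) had the largest change of the 6. Its level was 23.3 CPM in C-f and 6.93 in C-m, from 357 and 78 reads. It was 339.5 CPM in S-f and 228.2 in S-m, from 5364 and 3323 reads. The lower of the sevoflurane libraries therefore stood far above the higher control. The mean rose from 15.1 ± 11.6 to 283.9 ± 78.7 CPM (SD, n = 2 each), a log2 fold change of 4.22 ± 0.62 (SE, edgeR adjusted p = 0.00416), higher in both sexes. Of the 15417 tested genes, 556 had a larger log2 fold change. The rise was 14.6-fold in females and 32.9-fold in males, C-m being the lowest library. Without C-f the log2 fold change was 5.37, and without C-m 3.57, and it was called in each of the 4 fits with 1 library left out.

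GABBR1 (ENSMMUG00000021483), the partner of GABBR2 in the receptor, was not called. It was at 884.1 CPM in C-f, 645.3 in C-m, 901.4 in S-f and 662.0 in S-m. The ranges of the conditions overlapped almost fully, and the female library was higher than the male in each. The log2 fold change was 0.03 ± 0.30 (edgeR adjusted p = 0.943), with a 95% interval of −0.70 to 0.77, which leaves room for changes of up to these sizes. The table gives 1 count per gene, and the GABBR1a and GABBR1b isoforms, which start at different promoters, were not resolved.

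The balance of reads between both subunits shifted accordingly. For each GABBR2 read there were 38.0 GABBR1 reads in C-f and 93.1 in C-m, but 2.65 in S-f and 2.90 in S-m. Transcript length cancels when 1 such ratio is compared across libraries. The log2 ratio of GABBR2 to GABBR1 went from −5.89 ± 0.92 to −1.47 ± 0.09 (SD, n = 2 each), a difference of 4.42, or 21.4-fold. The sevoflurane libraries gave nearly the same ratio, while the controls differed from each other by more. An exact two-sided permutation test of 2 against 2 libraries cannot go below p = 0.333, which is the value here (0.556 adjusted over the 5 ratios examined). These are ratios of reads, not of molecules or of receptor protein.

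GLRA3 (ENSMMUG00000008868), an alpha subunit of the glycine receptor, was the other gene that rose. It stood at 4.11 CPM in C-f and 1.24 in C-m, from 63 and 14 reads. It stood at 16.5 CPM in S-f and 17.3 in S-m, from 260 and 252 reads. The sevoflurane libraries were close together and both above the controls. The mean went from 2.68 ± 2.03 to 16.9 ± 0.601 CPM (SD, n = 2 each), a log2 fold change of 2.64 ± 0.62 (SE, edgeR adjusted p = 0.0180), higher in both sexes. The call was lost without S-f (adjusted p = 0.0574) and without S-m (0.0739), where the log2 fold changes were 2.68 and 2.61. Without C-f it was 3.78 and without C-m 2.01, both called.

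GLRB (ENSMMUG00000022901), the beta subunit, was at 111.4 CPM in C-f and 87.5 in C-m. It was at 131.4 CPM in S-f and 222.7 in S-m. Both sevoflurane libraries exceeded both controls, the female by little. The log2 fold change of 0.83 ± 0.33 (SE) was not called (edgeR adjusted p = 0.0882, unadjusted p = 0.0439). It passed the threshold with library totals in place of TMM (1.06, adjusted p = 0.0471), without the filter on low counts (0.85, 0.0327) and without S-f (1.17, 0.0356). The change was 1.18-fold in females and 2.55-fold in males, and the difference between the sexes could not be tested with 1 library of each kind.

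GPHN (ENSMMUG00000009520) encodes the scaffold that holds glycine and GABA-A receptors at inhibitory synapses and that also completes the molybdenum cofactor. Its levels were 92.2 and 90.4 CPM in C-f and C-m and 96.1 and 135.7 CPM in S-f and S-m. The controls were almost equal, and S-m stood apart from the other libraries. The log2 fold change was 0.34 ± 0.27 (SE, edgeR adjusted p = 0.346), with a 95% interval of −0.32 to 1.004, and it was called under none of the 9 alternatives run.

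**Figure D2:**
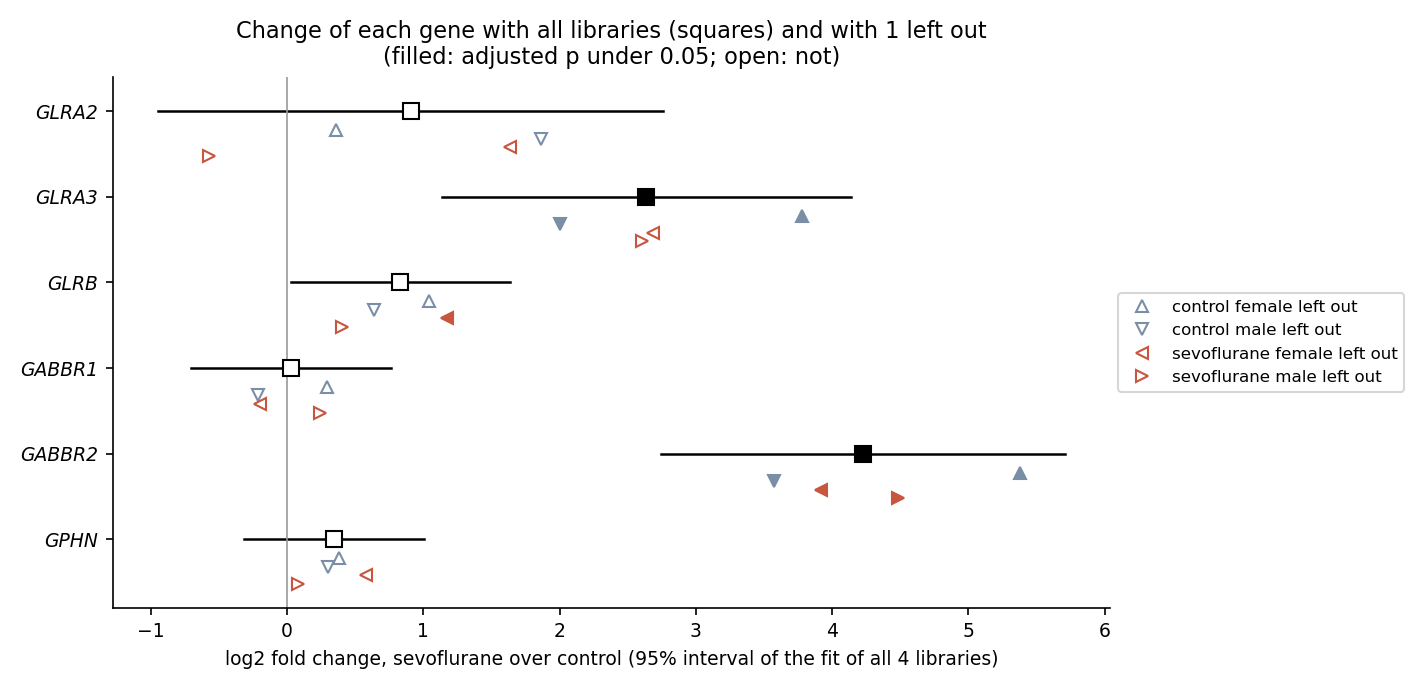
Log2 fold change of sevoflurane over control for each gene, with squares and 95% intervals from all 4 libraries and triangles from fits with 1 library left out. Filled symbols passed an adjusted p of 0.05; the GABBR2 symbols lie between 3.57 and 5.37 and are all filled, while GLRA2 and GABBR1 have triangles on both sides of 0.

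The proportion of GLRB to GPHN reads, the receptor subunit and the scaffold it binds, was 1.21 in C-f, 0.968 in C-m, 1.37 in S-f and 1.64 in S-m. The mean log2 ratio differed by 0.47 between the conditions (exact two-sided permutation p = 0.333, the smallest that 2 against 2 can give). Both sevoflurane libraries lay above both controls, also in GLRA3 reads per GLRB read, which were at 0.0369 in C-f, 0.0142 in C-m, 0.125 in S-f and 0.0777 in S-m. That is a log2 difference of 2.11, with the same exact p of 0.333.

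**Figure D3:**
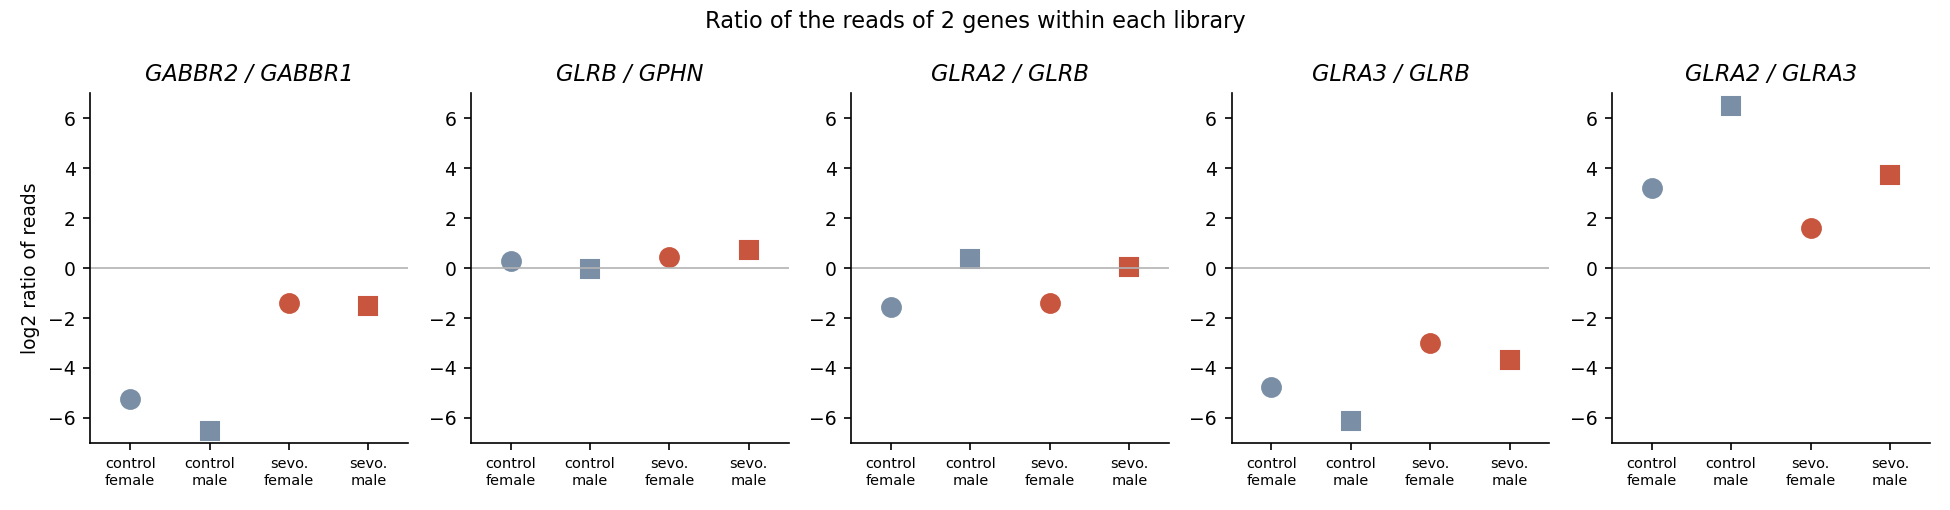
Log2 ratio of the reads of 2 genes within each library, for the 5 ratios examined, with circles for female and squares for male libraries. GABBR2 over GABBR1 moves from −5.25 and −6.54 in controls to −1.41 and −1.54 after sevoflurane, while GLRA2 over GLRB differs by sex in both conditions.

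GLRA2 (ENSMMUG00000003482) was called between the sexes but not between the conditions. It was at 37.9 CPM in C-f, 111.7 in C-m, 50.1 in S-f and 230.3 in S-m. Both males lay above both females, and the conditions overlapped. The log2 fold change of sevoflurane over control was 0.91 ± 0.77 (SE, edgeR adjusted p = 0.376), 1.32-fold in females and 2.06-fold in males, and it turned to −0.57 without S-m. The male level was 2.95 times the female level in controls and 4.59 times after sevoflurane, and 2.67% of tested genes were at least 2-fold higher in the male of both conditions. In a fit of condition plus sex, which leaves 1 residual degree of freedom, the male over female log2 fold change was 1.88 ± 0.31 (SE, edgeR adjusted p = 0.00327), beside 1.84% of tested genes called between the sexes. With sex as the only term the value was 1.96 and was not called, and in that fit edgeR called 0 genes, with 168 at an unadjusted p under 0.05. With 1 animal of each sex in a condition, sex and individual animal cannot be told apart.

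None of the other 5 genes was called between the sexes. GABBR2 had the lowest unadjusted p of these (0.00385, edgeR adjusted p = 0.119), at a male over female log2 value of −1.12 ± 0.33 (SE), and passed the threshold without the filter on low counts (adjusted p = 0.0292). Its male level was 0.298 of the female level in controls and 0.672 after sevoflurane. For GLRA3 the same ratios were 0.303 and 1.05, for GLRB 0.785 and 1.70, for GABBR1 0.730 and 0.734, and for GPHN 0.981 and 1.41. GABBR1 alone kept nearly the same ratio in both conditions.

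A marker of excitatory neurons also differed between the male and female libraries. SLC17A6, the vesicular glutamate transporter abundant in diencephalic neurons, named after its values were seen, was at 29.2 CPM in C-f, 111.5 in C-m, 68.2 in S-f and 390.3 in S-m. It was called higher in males (log2 2.23 ± 0.31 SE, edgeR adjusted p = 7.99e-04), with an order of libraries that placed both males above both females, as for GLRA2. Of 6 oligodendrocyte marker IDs 2 were called higher in males. The part of these differences in the GLRA2 result was not tested.

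**Figure D4:**
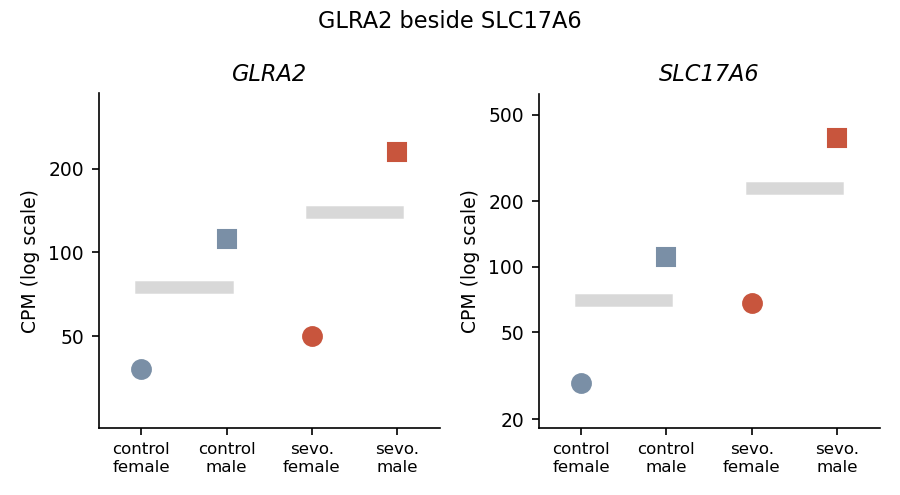
CPM (log scale) of GLRA2 beside SLC17A6 in each library, with circles for female and squares for male libraries and grey bars for means of 2 libraries. Both genes are higher in both males than in either female, at 111.7 and 230.3 CPM for GLRA2 and 111.5 and 390.3 CPM for SLC17A6.

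The mix of glycine receptor alpha subunits was described by the share of each among reads on GLRA1 to GLRA4. GLRA3 made up 9.77% of 645 such reads in C-f (95% Clopper-Pearson interval 7.59 to 12.3%) and 1.10% of 1274 in C-m (0.602 to 1.84%). It made up 24.2% of 1073 reads in S-f (21.7 to 26.9%) and 6.94% of 3633 in S-m (6.13 to 7.81%). The share was thus larger after sevoflurane within each sex, but C-f lay above S-m, so the conditions overlapped. GLRA2 made up most of the rest, at 90.1%, 98.7%, 73.8% and 92.3% in C-f, C-m, S-f and S-m. Intervals cover counting error only, and shares of reads are not corrected for transcript length. The log2 ratio of GLRA2 to GLRA3 differed by −2.18 between the conditions (exact two-sided permutation p = 0.667).

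The remaining alpha subunits were barely detected. GLRA1, the main alpha subunit of the adult spinal cord, had 0 reads in both controls and 8 and 9 reads in S-f and S-m, too few to pass the filter. Against a floor of 3 reads over the control group (0.113 CPM), its level after sevoflurane (0.560 CPM) was 4.96-fold higher. That value leaves out the counting error of these few reads and the spread between animals. GLRA4 had 1 and 2 reads in C-f and C-m and 13 and 19 in S-f and S-m. It passed the filter on low counts only through the sevoflurane libraries, so the direction of any call was fixed beforehand. It was called higher (log2 fold change 3.10 ± 0.94 SE, edgeR adjusted p = 0.0399), but the call was lost in each fit with 1 library left out (adjusted p from 0.127 to 0.267), with DESeq2 (0.125) and without the filter (0.0883).

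Among genes that transport, make or break down glycine, no change passed the test. Of 8 tested, 0 were called by edgeR in either direction, with 3 lower and 0 higher at an unadjusted p under 0.05 and 1 called lower by DESeq2, beside 40.7% of all tested genes called by edgeR. The median log2 fold change was −0.80. The conditions did not overlap for 8 of the 8, beside 75.0% of all tested genes, and both sevoflurane libraries lay below both controls for 6 of the 8, beside 37.3%. SLC6A9, the glycine transporter GlyT1, named after its values were seen, was at 26.7 and 33.3 CPM in C-f and C-m and 23.2 and 12.8 in S-f and S-m (log2 −0.73 ± 0.39 SE, edgeR adjusted p = 0.171). SLC6A5, the neuronal transporter GlyT2, also named after its values were seen, had 5 reads in C-m, 7 in S-m and 0 in both females, and was not tested.

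Partners of gephyrin and other proteins of the inhibitory postsynapse moved in both directions. The 22 tested genes comprised 6 that rose, 5 that fell and 11 with no call, with a median log2 fold change of 0.47, so 11 of 22 were called beside 40.7% of all tested genes. MAGI2, a synaptic scaffold, stood at 3.65 and 2.40 CPM in C-f and C-m and at 88.9 and 55.7 CPM in S-f and S-m, a log2 fold change of 4.57 ± 0.43 (SE, edgeR adjusted p = 0.00183). ENAH, the actin regulator Mena, rose by 3.86 ± 0.37, and SLITRK3, an adhesion protein of inhibitory synapses, by 3.01 ± 0.34. The other 3 that rose, named after their values were seen, were LHFPL4 (2.70 ± 0.46), which anchors GABA-A receptors, IQSEC3 (1.78 ± 0.46), a gephyrin-binding exchange factor, and NSF (1.46 ± 0.31), a membrane fusion ATPase. The call of IQSEC3 was lost without C-m (1.49) and without S-f (1.14). PFN1, the actin-binding profilin, was at 213.4 and 222.3 CPM in C-f and C-m and 59.1 and 34.3 in S-f and S-m (log2 −2.22 ± 0.33 SE, edgeR adjusted p = 0.00457). GABARAP, which binds GABA-A receptors, also fell, at −1.82 ± 0.26. DYNLL1 (−1.61 ± 0.25), a dynein light chain, and INSYN1 (−1.38 ± 0.27), a protein of the inhibitory synapse, fell too and were named after their values were seen.

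NLGN2, the neuroligin of inhibitory synapses, was lower in both sevoflurane libraries (403.2 and 367.0 CPM against 250.5 and 167.1) and missed the threshold (log2 −0.88 ± 0.29 SE, edgeR adjusted p = 0.0513); it was named after its values were seen. On the metabolic side of gephyrin, 0 of 7 tested genes of the molybdenum cofactor and its enzymes were called by edgeR or DESeq2. That stands beside 40.7% of all tested genes called by edgeR. At an unadjusted p under 0.05 there was 1, and the median was −0.06.

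Effectors of the GABA-B receptor also moved in both directions. Among 21 tested, 7 rose and 3 fell, so 10 were called beside 40.7% of all tested genes, and the median was 0.73. KCNJ3, which encodes the potassium channel subunit GIRK1 opened by G protein beta and gamma subunits, was at 2.35 and 0.444 CPM in C-f and C-m and 46.1 and 52.1 CPM in S-f and S-m. These came from 36 and 5 reads in the controls and 729 and 758 in the sevoflurane libraries. The controls alone would not have carried KCNJ3 through the filter on low counts. The libraries of each condition were far apart from those of the other. The log2 fold change was 5.08 ± 0.70 (SE, edgeR adjusted p = 0.00361), and it was 6.78 without C-f and 4.35 without C-m. KCNJ6, the GIRK2 subunit, rose by 2.20 ± 0.57, a call lost without C-f (adjusted p = 0.0616), S-f (0.0850) or S-m (0.111). ADCY9, an adenylyl cyclase, rose by 3.37 ± 0.47. The other 4 that rose, named after their values were seen, were the cyclases ADCY1 (1.65 ± 0.30) and ADCY5 (1.03 ± 0.30), the calcium channel subunit CACNA1B (1.37 ± 0.26) and the G protein beta subunit GNB1 (1.03 ± 0.31). The call of CACNA1B was lost without C-m (1.27), that of GNB1 without C-m (0.71), S-f (0.96) or S-m (1.11), and that of ADCY5 in each fit with 1 library left out (0.81 to 1.29). The 3 that fell were G protein subunits, GNG3 (−2.10 ± 0.28), GNB2 (−1.72 ± 0.26) and GNAI2 (−1.25 ± 0.25).

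Of 6 proteins that bind the GABA-B receptor, 1 rose and 1 fell, with a median of 0.53, beside 21.3% of all tested genes called higher and 19.4% lower. KCTD16, a cytosolic auxiliary subunit that shapes the response of the receptor, was at 8.61 and 4.26 CPM in C-f and C-m and 17.2 and 17.9 in S-f and S-m (log2 1.44 ± 0.46 SE, edgeR adjusted p = 0.0477). Its call was lost without C-m (log2 0.99) and without either sevoflurane library, and its value was 2.06 without C-f. PIANP, a membrane protein that binds the extracellular part of GABBR1, fell by 1.70 ± 0.26, from 298.1 and 369.6 CPM in C-f and C-m to 107.3 and 97.9 in S-f and S-m.

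Of 6 genes that make, take up or break down GABA, 3 rose, beside 21.3% of all tested genes called higher, and the median was 0.73. By edgeR 0 fell, as at an unadjusted p under 0.05 and by DESeq2. ALDH5A1, the last enzyme of GABA breakdown, rose by 3.62 ± 0.38 (SE, edgeR adjusted p = 0.00221), from 3.65 and 4.62 CPM in C-f and C-m to 40.4 and 61.3 in S-f and S-m. SLC6A11, the transporter GAT-3 of astrocytes, rose by 1.43 ± 0.41 and ABAT, the GABA transaminase, by 1.07 ± 0.24. The call of SLC6A11 was lost without C-m (0.95) or either sevoflurane library, with 2.12 without C-f, and that of ABAT without C-f (1.16) or C-m (0.97). GAD1 and GAD2, the enzymes of GABA synthesis, were named after their values were seen and were not called (0.30 ± 0.31 and 0.39 ± 0.26).

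**Figure D5:**
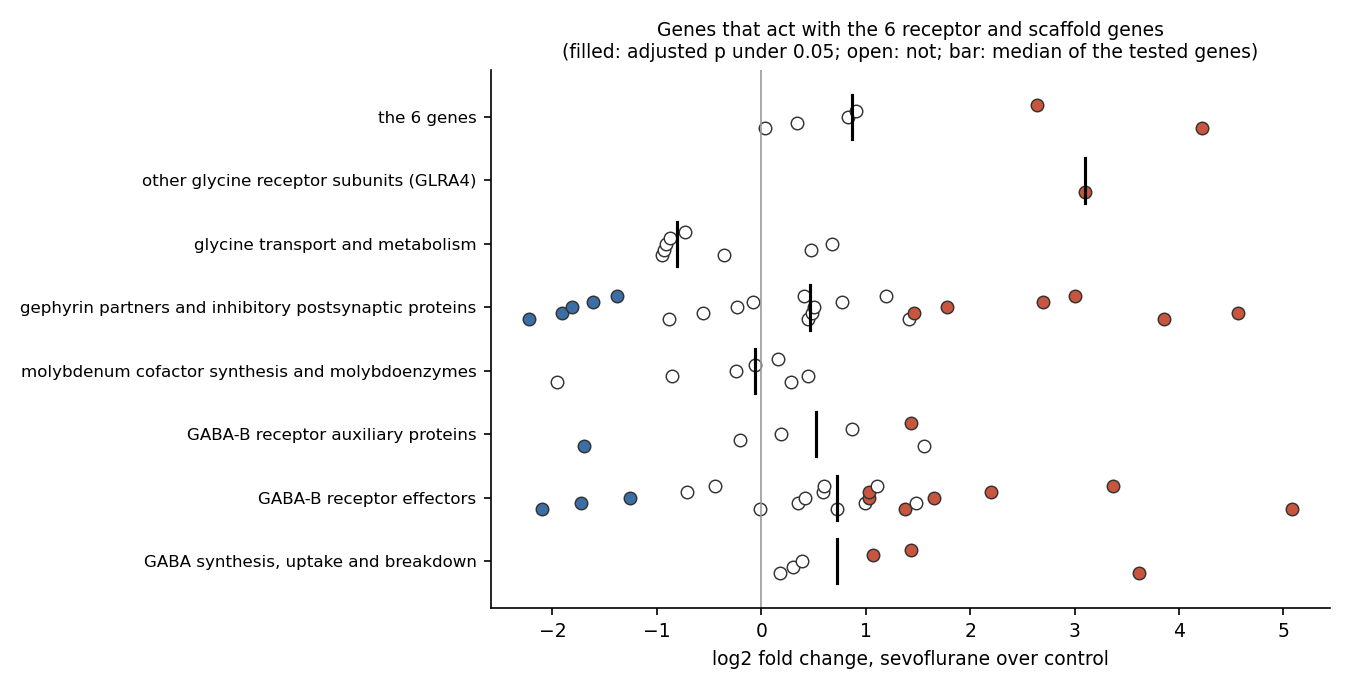
Log2 fold change of sevoflurane over control for the 6 genes and for each tested gene of 7 lists of genes that act with them. Filled points passed an adjusted p of 0.05 and bars mark medians; the gephyrin partner list (6 higher, 5 lower) and the effector list (7 higher, 3 lower) spread to both sides, and 0 genes of glycine handling passed.

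Markers of cell types were set beside these values, and their counts of calls stand beside 21.3% of all tested genes called higher and 19.4% lower. Of 7 neuronal markers 3 were called higher and 1 lower. Their summed level was 4495 to 5030 CPM in controls and 6331 to 7633 CPM after sevoflurane. Single neuronal markers, named after their values were seen, differed widely. MAP2 went from 14.5 and 7.82 CPM in C-f and C-m to 992.0 and 1551 in S-f and S-m. Its log2 fold change was 6.82 ± 0.50 (SE), with 5.24 ± 0.77 for SYT1 and 3.23 ± 0.60 for ELAVL4. RBFOX3 fell (−1.04 ± 0.32), and SNAP25 (0.31), STMN2 (−0.08) and ENO2 (−0.20) were not called. Of 9 inhibitory neuron markers 1 was called, lower, with sums of 1060 to 1430 CPM in controls and 648.1 to 941.9 CPM after sevoflurane. It was SST (729.2 and 601.5 CPM in C-f and C-m, 225.9 and 111.1 in S-f and S-m). Of 6 excitatory neuron markers 1 was called, lower (4988 to 6219 against 1832 to 2240 CPM). It was NRGN (4616 and 3604 CPM in C-f and C-m, 985.0 and 484.9 in S-f and S-m). Both sums fell mainly through these single genes, named after their values were seen. Median log2 fold changes were −0.50 for the inhibitory and 0.02 for the excitatory markers. Of 6 astrocyte markers 1 was higher and 2 lower (3535 to 4010 against 2885 to 3699 CPM), with a median of 0.58. GFAP, called lower, went from 2317 and 2337 CPM in C-f and C-m to 253.8 and 551.8 in S-f and S-m. SLC1A2, called higher, went from 28.6 and 15.9 to 369.8 and 508.0 CPM, both genes being named after their values were seen. Of 7 microglial markers 5 were called, each lower (421.2 to 464.6 against 176.9 to 238.2 CPM). Of 4 tested choroid plexus markers 1 was called, lower, and the markers summed to 17702 CPM in C-m and to 8.24 to 30.6 CPM in the other libraries. The called marker was KCNJ13, named after its values were seen, with 15 and 364 reads in C-f and C-m and 0 in S-f and S-m. It passed the filter on low counts only through the controls, so the direction of any call was fixed beforehand. Of 6 oligodendrocyte marker IDs 1 was called, higher, and their sum ranged from 1475 to 6391 CPM in controls and from 3035 to 3966 CPM after sevoflurane. The 4 endothelial markers, with 1 higher and 1 lower, summed to 158.1 to 207.0 CPM in controls and to 109.8 to 112.0 CPM after sevoflurane. CLDN5, the marker called lower and named after its values were seen, was at 110.9 and 149.0 CPM in C-f and C-m. It was at 21.5 and 20.4 CPM in S-f and S-m. The part of these differences in the changes of the 6 genes was not tested.

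For each of the 6 genes the tested genes with the most similar profile over the 4 libraries were listed by Euclidean distance of centred log2 CPM, as a description. GLRA3 lay nearest to PRICKLE1 (distance 0.101) and to GABRA4 (0.132), which encodes a GABA-A receptor alpha subunit and stood at 7.83, 2.75, 34.6 and 35.7 CPM in C-f, C-m, S-f and S-m. GABBR2 lay nearest to ZBTB10 (0.142) and SPIN3 (0.190), and GLRA2 to SLC35F2 (0.247) and RASEF (0.281). The nearest to GLRB were SALL4 (0.0490) and N4BP2L2 (0.0951), to GABBR1 TCHP (0.0317) and ACSBG1 (0.0400), and to GPHN SMU1 (0.0298) and NPM1 (0.0459). Some of these matches rest on few reads. SALL4 stood at 0.587, 0.444, 0.696 and 1.30 CPM in C-f, C-m, S-f and S-m. RASEF ranged from 0.261 CPM in C-f to 2.82 in S-m, and SPIN3 was at 0.0888 CPM in C-m.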

How the data were processed

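The authors deposited raw counts of reads per gene, not normalized, for 4 libraries. HISAT2 is the aligner named in the submitters' processing notes. Its version, how reads were counted and stranded, and the genome build and annotation were not given in the sources used here, so no coordinates, transcript lengths or sequences are shown and reads shared with overlapping or near-identical genes are uncertain. Symbols came from a table of IDs that named 24173 of the 35395 IDs. The treatment label gave the groups, and the sex label gave the sexes; replicate 1 is the female and replicate 2 the male.

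Genes were filtered with filterByExpr (minimum count 10), which kept 15417, and tested with edgeR 4.0.16 in R 4.3.3 (TMM, quasi-likelihood F-test, condition as the only term, 2 residual degrees of freedom). The test was checked on simulated data. Male and female libraries were compared with condition and sex as terms. Standard errors came from the F statistic. DESeq2 1.42.0 was an alternative, with other scalings, no filter, a sex term and 1 library left out.

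The 6 genes and the lists were chosen with earlier results of these data known. Of 129 listed genes, MAG, AQP1 and MTARC1 had no matched ID, nor had HOXB3 among the genes added later, and MOBP had 2 IDs. The HOX and Y-linked genes and the ribosomal protein genes were added after seeing the data. Named were the 6 genes, GLRA1, GLRA4, the 3 called genes of largest rise and of largest fall in each list, and the 2 genes of nearest profile to each of the 6; all others are said to be named after their values were seen. A few genes of the lists are not reported here.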

Additional observations from a re-analysis of the deposited data

How the results depend on the processing

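Of the 6 genes, 2 were called higher with RLE scaling, DESeq2 and the sex term, 3 with library totals, 4 without the filter on low counts, and 1 to 2 without any 1 library; 0 were called lower in any of these. Library totals moved the median of all tested genes to 0.24, from 0.0040 with TMM, and the share of calls that were higher to 63.3%, from 52.3%. Leaving out 1 library gave 3469 to 5800 calls over all genes against 6278, with 1967 to 3029 higher and 1502 to 2771 lower; the lowest counts came without S-m. The ranges without 1 library were 2.01 to 3.78 for GLRA3, 0.41 to 1.17 for GLRB, −0.57 to 1.87 for GLRA2 and −0.21 to 0.30 for GABBR1. GABBR1 turned to −0.21 without C-m and −0.20 without S-f. Without the filter GLRA2 was called at 0.95 and GLRB at 0.85, and GLRB was called at 1.06 with library totals. The log2 ratio of GLRA2 to GLRB, −0.07 with all libraries, ranged from −1.02 to 0.88, and was 0.88 without C-m and 0.65 without S-f. The cause of these changes was not tested. Fewer samples, by construction, gave fits with 1 library left out less to estimate the spread from.

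Of glycine handling genes 3 were called lower without the filter, 3 with the sex term, 1 with DESeq2 and 0 to 3 without 1 library. Of GABA-B auxiliary proteins 2 were called higher with library totals, 3 without the filter, 3 with DESeq2, 3 with the sex term and 0 to 2 without 1 library. Without 1 library 4 to 6 GABA-B effectors and 1 to 2 GABA supply genes were called higher. Between the sexes 0 genes were called with sex as the only term (168 at an unadjusted p under 0.05) and 603 without the filter, against 283; the value of GLRA2 was 1.96 with sex as the only term, where its call was lost. The labels pair no animals. Sex as a term, which acts as a replicate block, gave log2 fold changes of 4.43 for GABBR2, 2.81 for GLRA3, 0.79 for GLRB, 0.73 for GLRA2, 0.32 for GPHN and 0.03 for GABBR1, and changed no call of these 6.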
